A study of Trichoderma reesei with 11 samples.

Results

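Of the 10879 gene IDs counted in mycelium of Trichoderma reesei, 167 were abundant and held nearly the same mean level in 4 groups of cultures. They were chosen by their measured levels. The reads of each ID were expressed as a rate on the library total (CPM, counts per 1000000 counts), averaged within each group, and 0.5 was added. An ID was kept when all 4 means were at least 300 CPM and the largest was at most 1.3 times the smallest. The first and last 20 IDs of each of the 7 lettered ID series, TrA to TrG, were left out, which left 10596 IDs to choose from. Of these, 447 reached 300 CPM in every group, so that the 167 members were 37.4% of the abundant IDs and 1.54% of all IDs. The remaining 280 abundant IDs, whose group means lay more than 1.3-fold apart, serve as the comparison.

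Trichoderma reesei is a mould that degrades plant cell walls and serves industry as a source of cellulases. Both strains carried the deletion of mus53 in QM6a, made to favour targeted gene replacement, so the parent was not an unmodified wild type. In the deletion strain TR_57513 was removed as well, a MAP kinase kinase kinase of the HOG pathway by the title of the series. RNA was sequenced from 3 libraries of the deletion strain in constant light (Δ57513_LL), 3 of the deletion strain in constant darkness (Δ57513_DD), 3 of the parent in constant light (mus53_LL) and 2 of the parent in constant darkness (mus53_DD), all grown on cellulose at 28 °C for 96 h. Nothing in the labels says whether the deletion strain was more than 1 transformant or whether replicates were separate cultures.

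Genes that keep a high level whatever the strain or condition are often called housekeeping genes. In fungi they typically include parts of the translation machinery, of energy metabolism and of the cytoskeleton, and a few of them, such as those for actin and the elongation factor Tef1 or the small GTPase Sar1, are used in Trichoderma to scale quantitative PCR. The HOG pathway is the MAP kinase cascade that in yeast answers high osmolarity, and light is known to alter cellulase and secondary metabolite genes of this fungus. The deposited table does not pair its IDs with gene names, and none of its IDs was found among the 9116 genes listed for the GCF_000167675.1 assembly (0 of 10879, and so 0 of 167 members), so it is not known here which of the members are genes of these kinds. The deleted locus was likewise not looked up by its ID.

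The deletion strain had libraries of 8924252 to 10184280 counts in light and of 13790024 to 18278047 counts in darkness, and the parent had libraries of 8020351 to 8770166 counts in light and of 15175573 to 16308391 counts in darkness. Every member had at least 2241 counts in every library, which puts the counting error of a single value at a few percent or less. Replicate 1 of the deletion strain in darkness stood apart from replicates 2 and 3 of its group. Its chi-square per degree of freedom over all IDs was 260 and 242 against them, while replicates 2 and 3 differed by 13.6. The 2 dark libraries of the parent differed by 92.0. In the parent in light, replicate 1 differed from replicates 2 and 3 by 39.6 and 82.2, and these 2 from each other by 14.2. The values in the deletion strain in light were 3.53 to 15.2. This measure also rises with the number of counts, and the dark libraries held more. By their labels, all light libraries belong to 1 range of library numbers and all dark libraries to another, so an effect of light and one of the library range cannot be told apart.

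CPM is not divided by gene length, so the order of the IDs below is one of shares of reads. The members ranged in level from 322 to 8644 CPM (mean of the 4 group means), with a median of 533 CPM. There were 71 members below 500 CPM, 73 between 500 and 1000 CPM, 16 between 1000 and 2000 CPM and 7 above 2000 CPM. The 7 at the top supplied 22.3% of the members' summed level. In the deletion strain all members together took 12.1% to 12.7% of the counts of a light library and 11.9% to 12.4% of those of a dark library. They took 12.3% to 12.9% of the counts of the parent in light and 12% to 12.6% in darkness. The highest of these shares was 1.08 times the lowest, and the groups were not separated beyond the spread of their libraries. The 280 other abundant IDs took 26.2% to 29.3%.

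TrC1333W took the most reads of any member and ranked 2 among all 10879 IDs. It had 9462, 9326 and 8431 CPM in the deletion strain in light, 8108, 7879 and 8174 CPM in that strain in darkness, 8686, 9086 and 8319 CPM in the parent in light, and 9503 and 7995 CPM in the parent in darkness. The deletion strain in darkness lay below both light groups, and the other groups overlapped. Its group means were 9073 ± 560 and 8054 ± 155 CPM in the deletion strain in light and darkness (SD, n = 3 each), 8697 ± 384 CPM in the parent in light (SD, n = 3) and 8749 ± 1067 CPM in the parent in darkness (SD, n = 2), and the largest was 1.13 times the smallest.

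TrC0653W, next but one in level, was held more closely between single libraries. Its values were 4625, 4561 and 4616 CPM in the deletion strain in light, 4542, 4112 and 4280 CPM in it in darkness, 4237, 4326 and 3982 CPM in the parent in light, and 4308 and 3935 CPM in the parent in darkness. The highest library was 1.18 times the lowest, against 1.21 times for TrC1333W, and the deletion strain in light lay above all other libraries.

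TrE0124C, second in level, was close to the limit, with a group ratio of 1.29. It had 4203, 4156 and 4048 CPM in the deletion strain in light, 4495, 5027 and 6382 CPM in that strain in darkness, 4155, 4187 and 3970 CPM in the parent in light, and 4625 and 5793 CPM in the parent in darkness. All 6 light libraries lay below all 5 dark libraries, and the highest library was 1.61 times the lowest. The next members in level were TrE0237W, TrC1132W and TrA1169W, with means of 3136, 2528 and 2260 CPM. TrA1169W had its lowest value, 1635 CPM, in replicate 1 of the deletion strain in darkness, against 2124 and 2008 CPM in replicates 2 and 3. TrC1132W was also lowest in that library, at 2108 CPM against 2812 and 2887 CPM, whereas TrE0237W was highest there, at 3906 CPM against 3234 and 3040 CPM.

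**Figure D1:**
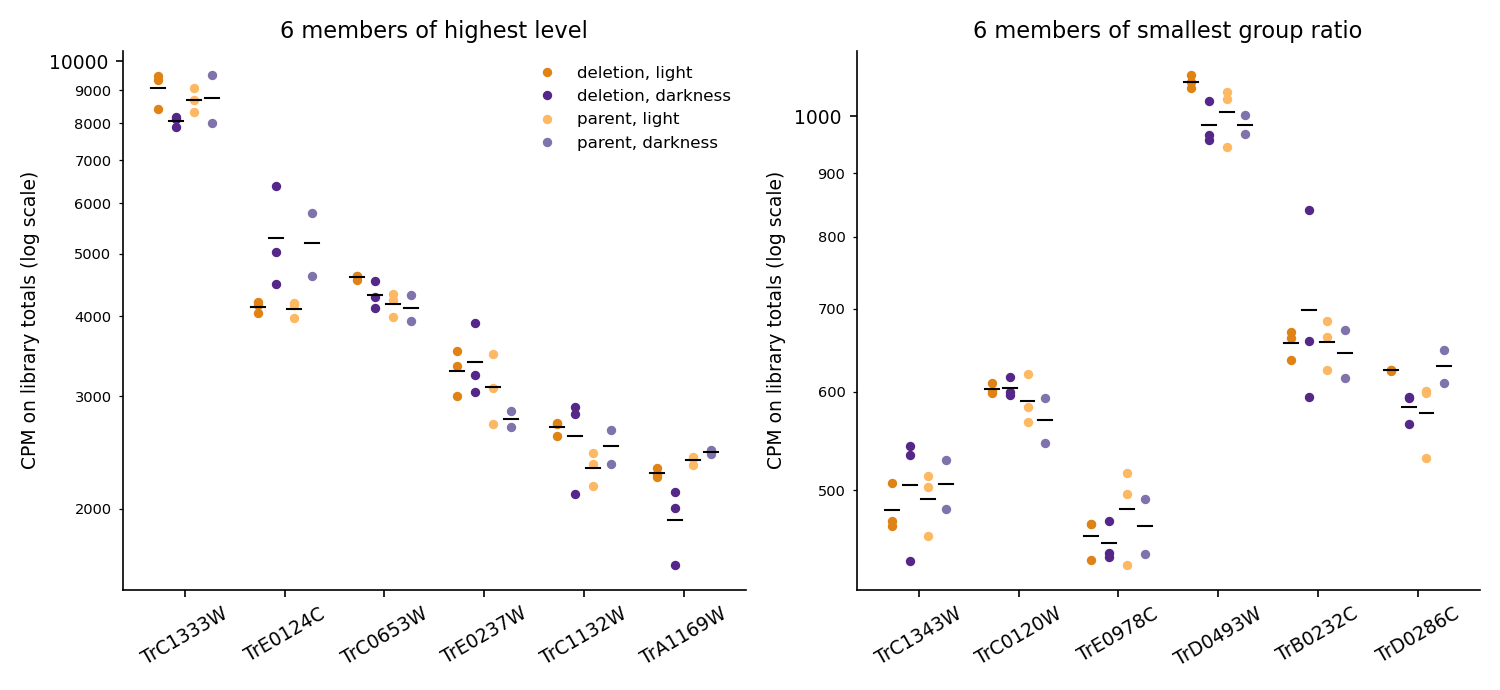
CPM on library totals (log scale) of the 6 members of highest level (left) and the 6 of smallest group ratio (right) in each of the 11 libraries. Points are single libraries, coloured by group, and black bars are group means. TrE0124C shows all light libraries below all dark ones, while TrC0653W spans 1.18-fold over all libraries.

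The smallest ratio of group means belonged to TrC1343W, at 1.05. Its group means were 482 ± 21.0 and 505 ± 57.9 CPM in the deletion strain in light and darkness (SD, n = 3 each), 492 ± 28.6 CPM in the parent in light (SD, n = 3) and 506 ± 32.0 CPM in the parent in darkness (SD, n = 2). Its single libraries ran from 438 to 542 CPM, both extremes falling in the deletion strain in darkness, so that the group means lay closer together than the replicates of that group. With TMM scaling it was nonetheless among the members called lower in light in the deletion strain, with a log2 fold change of -0.26 (SE 0.09). On library totals that strain had 468, 473 and 506 CPM in light, all within its range in darkness. The TMM factors, 1.08 to 1.09 in light and 0.918 to 0.967 in darkness, lower the light values of that strain against the dark ones.

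TrC0120W had the narrowest range over single libraries. It had 610, 601 and 598 CPM in the deletion strain in light, 597, 599 and 617 CPM in it in darkness, 567, 620 and 583 CPM in the parent in light, and 546 and 593 CPM in the parent in darkness. The highest library was 1.14 times the lowest, and the ranges of all 4 groups overlapped except that the parent in darkness lay below both groups of the deletion strain. TrD0493W followed with the same rounded ratio of 1.14, from 945 to 1079 CPM. The other IDs among the 6 of smallest group ratio were TrE0978C, TrB0232C and TrD0286C, with group ratios of 1.07, 1.08 and 1.09. With TMM scaling TrD0286C was called lower in light in the parent, with a log2 fold change of -0.28 (SE 0.07). TrB0232C had a small group ratio and a wider library ratio of 1.42, since replicate 1 of the deletion strain in darkness stood at 841 CPM against 594 and 660 CPM in replicates 2 and 3.

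Across the members the ratio of the largest to the smallest group mean ran from 1.05 to the limit of 1.3 with a median of 1.22. It was at most 1.1 for 10 members, above 1.1 and up to 1.2 for 60, and above 1.2 for 97. TrG0803C and TrC0677C were just inside the ratio limit, at 1.3 when rounded, and TrE0884C and TrB1862C just outside, at 1.302 when rounded. At the level limit, TrA1943W and TrC1313C were just inside, with lowest group means of 301 and 302 CPM, and TrD0092C and TrG1114C met the ratio limit but were just outside, both with a lowest group mean of 299 CPM after rounding.

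Steadiness of this degree was not particular to the highest levels. Among all IDs outside the series ends, the share with a group ratio of at most 1.3 was 14.0% where the lowest group mean was 10 to 30 CPM, 24.2% at 30 to 100 CPM and 34.2% at 100 to 300 CPM. It was 37.9% at 300 to 1000 CPM, where 149 members lay, and 33.3% at 1000 CPM and above, where 18 of 54 IDs were members. The shares of the members' classes thus lay close to that of the class just below them.

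**Figure D2:**
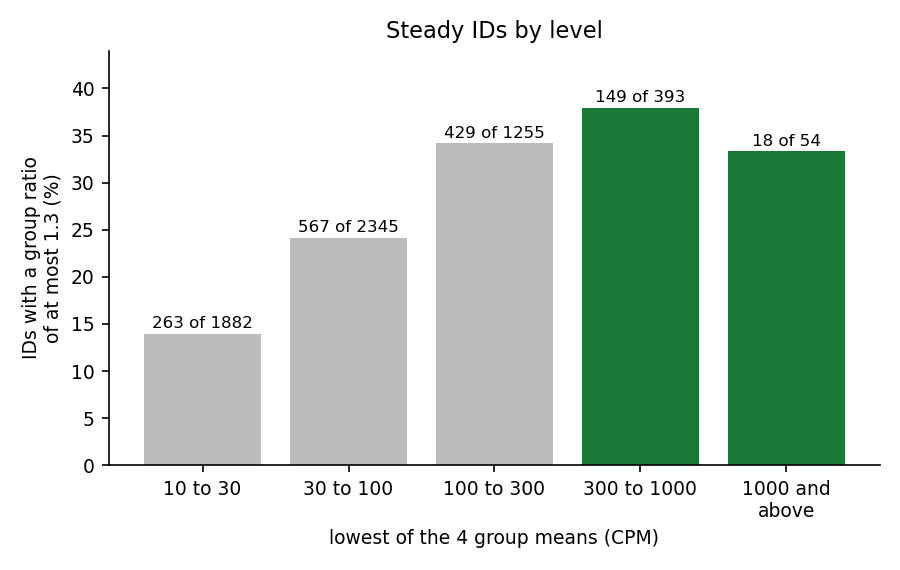
Percentage of IDs whose largest group mean is at most 1.3 times the smallest, by class of the lowest group mean (CPM). Green bars hold the 167 members and grey bars the IDs below 300 CPM, and the numbers above the bars give steady IDs of all IDs in the class. The share is 34.2% at 100 to 300 CPM and 37.9% at 300 to 1000 CPM.

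The rule looked at group means only, so the single libraries show how much spread the means conceal, although the same libraries make up the means. The highest of the 11 libraries was at most 1.5 times the lowest for 137 members (82.0%) and at most 2 times for 166 (99.4%), with a median of 1.38. Among the 280 other abundant IDs these were 22 (7.86%) and 142 (50.7%), with a median of 1.99 and a maximum of 59.2. This contrast follows in part from the rule and is given without a test. The most abundant ID of the table, TrC1130C (by share of reads), was not a member, with 15047, 15827 and 14913 CPM in the deletion strain in light, 2462, 9706 and 9185 CPM in it in darkness, 18913, 12938 and 12732 CPM in the parent in light, and 17817 and 16590 CPM in the parent in darkness. TrC1011W, the next abundant ID outside the list, had 9826 CPM in replicate 1 of the deletion strain in light, its highest value, and 676 CPM in replicate 1 of the deletion strain in darkness, its lowest.

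**Figure D3:**
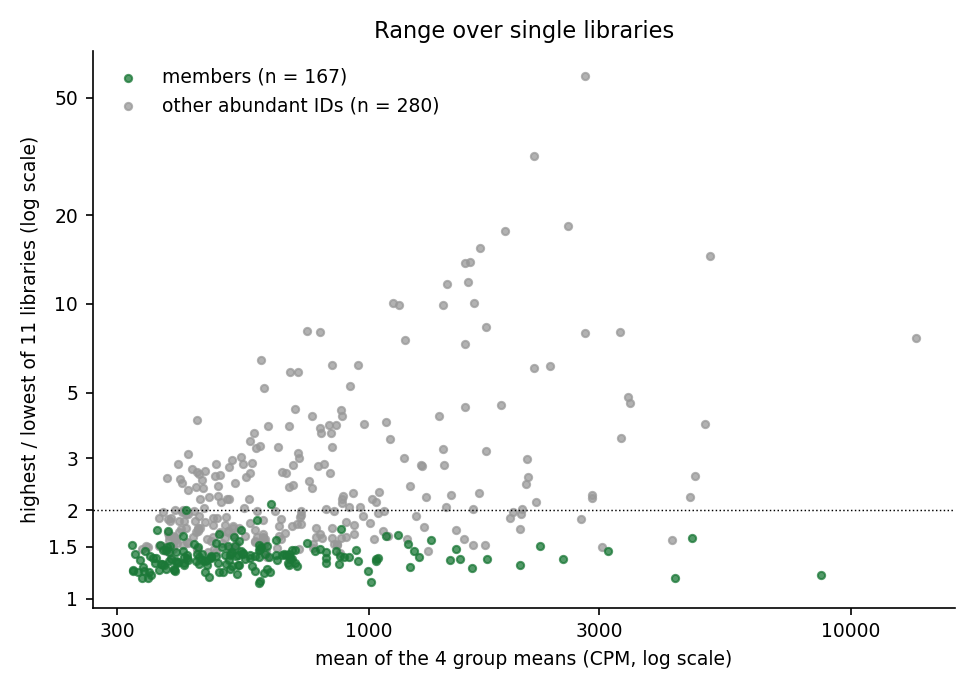
Ratio of the highest to the lowest of the 11 libraries (log scale) against the mean of the 4 group means (CPM, log scale) for the 167 members (green) and the 280 other abundant IDs (grey). The dotted line marks a ratio of 2, which 1 member and 138 of the other IDs exceed.

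TrD0389C was the member past 2-fold. It had 567, 545 and 507 CPM in the deletion strain in light, 972, 530 and 464 CPM in it in darkness, 506, 634 and 705 CPM in the parent in light, and 573 and 823 CPM in the parent in darkness. The ratio of 2.10 was set by 2 replicates of the same group, and its group means stayed within 1.29-fold. TrA0990C, at 1.99, had the same pattern, with 665, 354 and 334 CPM in the deletion strain in darkness and 334 to 516 CPM in the libraries other than that highest one.

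Replicates of the members were closest in the deletion strain in light, with a median coefficient of variation of 3.70% (n = 3), against 8.55% in the deletion strain in darkness (n = 3), 5.43% in the parent in light (n = 3) and 6.36% in the parent in darkness (n = 2). Counting error alone gave medians of 1.41%, 1.09%, 1.49% and 1.09% in the same order of groups. The other abundant IDs had median coefficients of variation of 4.56%, 13.0%, 7.27% and 11.3%. In the deletion strain in darkness, 32 members had replicates more than 1.3-fold apart, and with replicate 1 left out none did (0 of 167). Replicate 1 was the highest of the 3 replicates for 82 members and the lowest for 76, so that for 158 of 167 it lay at an end. Among the 280 other abundant IDs it was the highest for 120 and the lowest for 138. Of these 280, 134 had replicates more than 1.3-fold apart, and 7 did with replicate 1 left out. Leaving out a replicate can only narrow such a range. Without replicate 1 the members' median ratio over libraries was 1.34, the highest 1.77, and 154 members (92.2%) stayed within 1.5-fold.

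Small shifts were shared by many members in single libraries. On library totals, the median member stood 0.06 (log2) below its own median over libraries in replicate 2 of the deletion strain in darkness and 0.07 below in replicate 3. In the parent it stood 0.07 above in replicate 1 in light and 0.05 above in replicate 2 in light, where 109 and 123 of 167 members were above, and 0.07 below in replicate 2 in darkness. All medians lay within a span of 0.15. With TMM scaling, which sets library sizes so that the bulk of the IDs does not shift, the deletion strain had factors of 1.08 to 1.09 in light and 0.918 to 0.967 in darkness, and the parent had factors of 1.02 to 1.03 in light and 0.899 to 0.947 in darkness. On that scale the median member lay 0.06 to 0.11 below its own median in the 3 libraries of the deletion strain in light, 0.09 above it in replicate 1 of that strain in darkness and 0.09 and 0.07 above it in replicates 1 and 2 of the parent in darkness, and the span was 0.20.

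**Figure D4:**
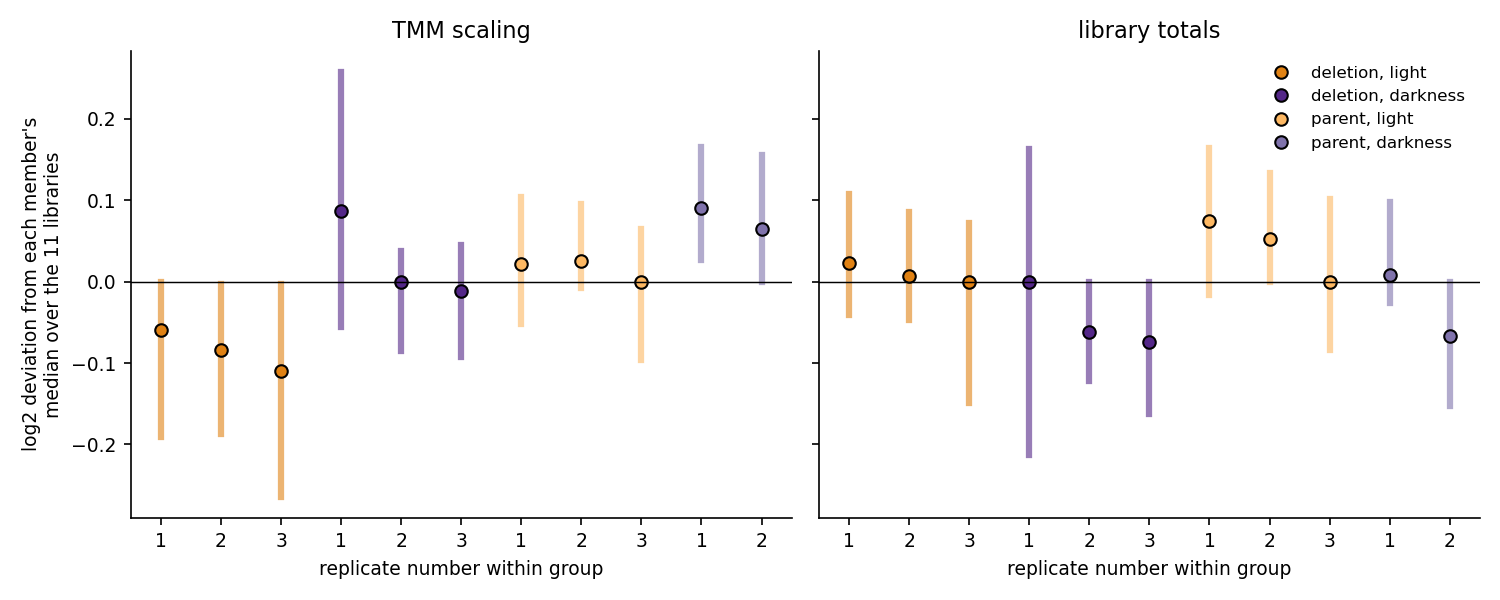
Log2 deviation of the members from their own median over the 11 libraries, with TMM scaling (left) and on library totals (right). Points are medians over the 167 members, bars run from the lower to the upper quartile, and libraries are numbered by replicate within each group. With TMM scaling the 3 libraries of the deletion strain in light lie lowest, and on library totals the medians span 0.15.

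The highest group mean fell in the deletion strain in light for 55 members, in the deletion strain in darkness for 20, in the parent in light for 69 and in the parent in darkness for 23. The lowest was that of the deletion strain in light for 44 members, of the deletion strain in darkness for 68, of the parent in light for 18 and of the parent in darkness for 37. Light groups were thus the highest for 124 of 167 members on library totals. Among the other abundant IDs the light groups were highest for 171 of 280.

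The whole table was fitted with edgeR, and the members' calls are a description, since the rule had used the same group means. In light, 39 of 167 members differed between deletion strain and parent at an adjusted p under 0.05 (3 higher, 36 lower), beside 27.0% of all 9040 IDs tested (13.9% higher and 13.1% lower). In darkness 5 members were called (1 higher, 4 lower), beside 12.2% of all (7.25% and 4.97%). Between light and darkness, 43 members were called in the deletion strain (0 higher, 43 lower), beside 43.0% of all (20.3% and 22.7%), and 21 in the parent (0 higher, 21 lower), beside 38.7% of all (18.3% and 20.4%). The strain effect differed between light and darkness for 2 members (0 more positive, 2 more negative), beside 10.8% of all (5.37% and 5.42%). No call was made in any of the 5 comparisons for 91 members (54.5%), 53 of the 280 other abundant IDs (18.9%) and 3169 of all tested IDs (35.1%). Since the rule removed large differences, nothing is read from these numbers.

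Which members were called, and how many in each direction, depended on the scaling. With library totals alone the median log2 fold change of all IDs was 0.19 for light against darkness in the deletion strain and 0.15 in the parent, against about 0 with TMM, and the called members were then 28 higher and 11 lower in the deletion strain and 12 higher and 1 lower in the parent. Upper-quartile scaling gave 1 higher and 25 lower in the deletion strain, and 2 higher and 2 lower in the parent. For deletion against parent in light the called members were 10 higher and 16 lower with library totals and 2 higher and 22 lower with upper-quartile scaling, and in darkness 1 higher and 0 lower, and 2 higher and 0 lower. Another scaling moves all IDs of a library alike, and the rule held the members' means together on library totals. Why the members lay where they did relative to all IDs was not tested, and their place is not read.

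**Figure D5:**
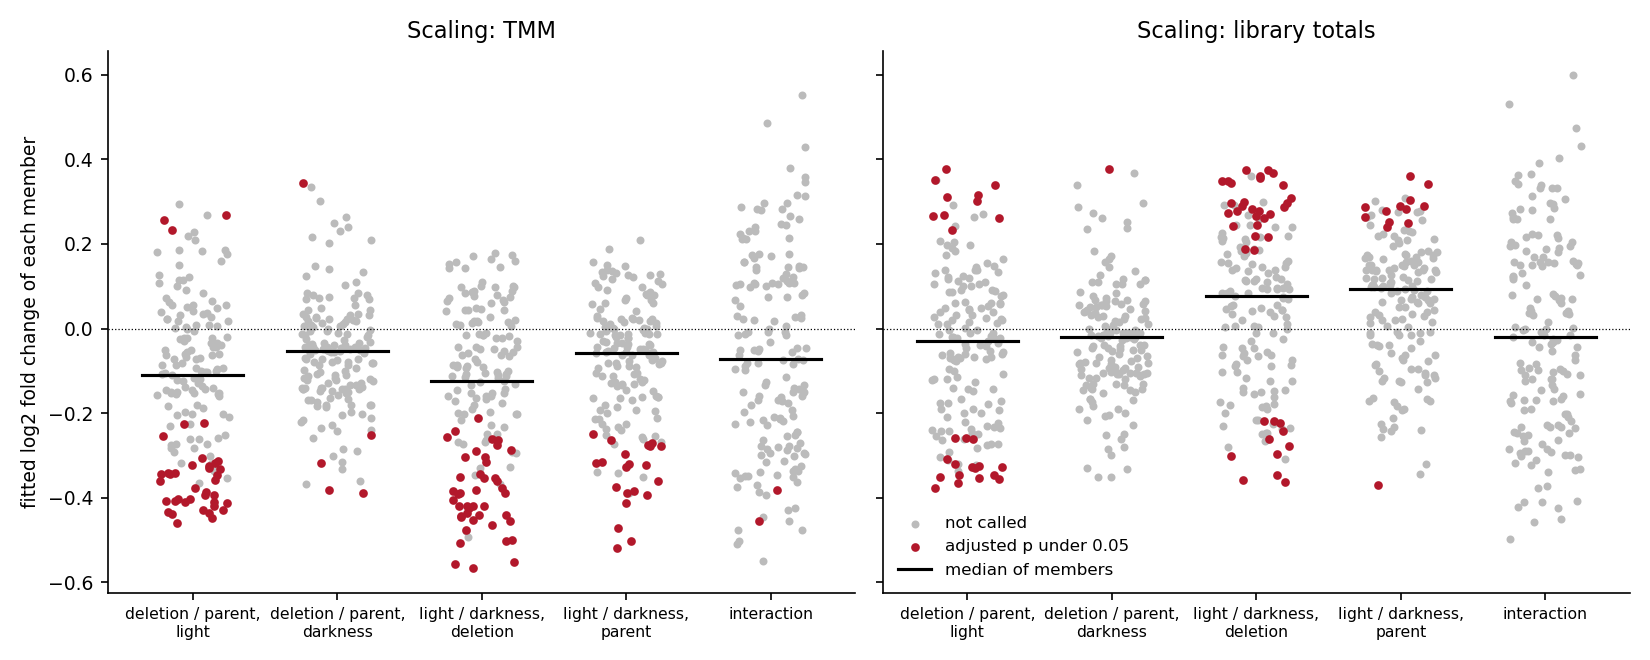
Fitted log2 fold change of each of the 167 members in 5 comparisons, with TMM scaling (left) and with library totals (right). Each point is a member, red where its adjusted p is under 0.05, and black bars are the members' medians. In light against darkness in the deletion strain the called members are 0 higher and 43 lower with TMM and 28 higher and 11 lower with library totals.

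Single libraries also moved the numbers called. For deletion against parent in light the number was 14, 10 and 5 without replicates 1, 2 and 3 of the deletion strain in light, 15, 9 and 19 without replicates 1, 2 and 3 of the parent in light, and 66 without replicate 1 of the deletion strain in darkness. In darkness it was 12, 2 and 0 without replicates 1, 2 and 3 of the deletion strain in darkness, 0 and 3 without replicates 1 and 2 of the parent in darkness, 1 without any one library of the deletion strain in light and 1 without replicate 2 of the parent in light. For light in the deletion strain it was 24 without replicate 2 and 24 without replicate 3 of that strain in light. For light in the parent it was 34 without replicate 1 of the deletion strain in darkness, 13 and 12 without replicates 2 and 3 of the parent in light, and 7 and 10 without replicates 1 and 2 of the parent in darkness. The 2 interaction calls became 6 without replicate 1 and 1 without replicate 3 of the deletion strain in darkness, and 0 without replicate 2 of it, any light library or replicate 1 of the parent in darkness. Where edgeR called 0 members after such an omission, 12 to 36 had an unadjusted p under 0.05.

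The called members with the largest fitted changes are given next. The ratio limit of the rule bounds their size on library totals. TrE0366C had 499, 543 and 444 CPM in the deletion strain in light, against 664, 633 and 617 CPM in the parent in light. The groups did not overlap, and the fitted log2 fold change was -0.45 (SE 0.10). TrE1005C had 569, 556 and 481 CPM in the deletion strain in light, against 725, 656 and 705 CPM in the parent in light, a log2 fold change of -0.46 (SE 0.12). In the same comparison TrA1265W and TrD0672W were higher in the deletion strain, by log2 fold changes of 0.27 (SE 0.09) and 0.26 (SE 0.08). TrD0672W had 1185, 1178 and 1168 CPM in the deletion strain in light, against 965, 942 and 882 CPM in the parent in light, so that its groups were apart as well. Without any one library of the 6 compared in light, neither of these increases passed the threshold. TrA1265W missed it in 11 of 17 other settings and omissions, among them upper-quartile scaling, no filter and the replicate block, and TrD0672W in 7 of 17. The TrE1005C decrease missed the threshold without replicate 3 of the deletion strain or replicates 1 or 3 of the parent in light.

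In darkness TrC1025C was higher in the deletion strain, with 505, 504 and 554 CPM against 412 and 391 CPM in the parent, a log2 fold change of 0.34 (SE 0.08). TrA1169W and TrA1714C were lower in the deletion strain, by log2 fold changes of -0.39 (SE 0.10) and -0.38 (SE 0.11). The value of TrA1169W in replicate 1 of the deletion strain, given above, was its lowest, and TrA1714C had its highest, 503 CPM, in replicate 1 of the parent, against 380 CPM in replicate 2. Both decreases missed the threshold in most of 17 other settings and omissions, in 12 for TrA1169W and in 13 for TrA1714C, whose log2 fold change was -0.21 without replicate 1 of the parent in darkness. TrC1025C missed it in 5 of 17, among them the omission of replicate 3 of the deletion strain in darkness or of either dark library of the parent.

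Between light and darkness, TrB1932W fell in the deletion strain. It had 601, 667 and 623 CPM in light against 932, 760 and 739 CPM in darkness, without overlap, and the log2 fold change was -0.57 (SE 0.11). TrE0124C, whose libraries were given above, fell in light in both strains, by log2 fold changes of -0.56 (SE 0.14) in the deletion strain and -0.50 (SE 0.15) in the parent. TrA0668W fell in the parent, with 792, 816 and 826 CPM in light against 1157 and 941 CPM in darkness, a log2 fold change of -0.52 (SE 0.11). On library totals alone these values were smaller in size, -0.36 for TrB1932W, -0.36 and -0.34 for TrE0124C and -0.37 for TrA0668W. In the parent the TrE0124C call was lost on library totals, with upper-quartile scaling, without replicate 2 in darkness or any one light library of the parent, and the TrA0668W call without replicate 1 in darkness. Without replicate 2 of the parent in darkness the log2 fold change of TrE0124C in the parent was -0.29.

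Group ranges on library totals did not overlap between deletion strain and parent for 89 members in light, beside 50.4% of all tested IDs, and for 31 in darkness, beside 40.4%. Between light and darkness the ranges did not overlap for 90 members in the deletion strain (67 higher and 23 lower in light), beside 64.9%. In the parent there were 78 (58 higher and 20 lower in light), beside 62.2%. These directions hold on library totals and differ from those of the calls with TMM scaling. These numbers, too, are a description, since the rule had used the same libraries.

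Members occurred in all 7 ID series. They numbered 41 of 2109 eligible IDs in series A, 18 of 1937 in B, 26 of 1540 in C, 23 of 1403 in D, 25 of 1267 in E, 18 of 1171 in F and 16 of 1169 in G, or 0.929% in B to 1.97% in E. As a share of the abundant IDs of the series, members made up 23.1% in B and 50% in D. The members of highest level in series F and G were TrF0809W and TrG0636W, with means of 1546 and 1472 CPM, and the 6 members with the most reads were in series C and E, apart from TrA1169W in series A. By the last letter of the ID, 87 members ended in C and 80 in W, and 50.6% of the eligible IDs ended in C. The skipped ends held 1 further abundant ID, and it did not meet the ratio limit.

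Most members stood alone in the ID order, and no run was longer than 2. There were 8 pairs of members with consecutive numbers, so that 16 members (9.58%) had a member as a neighbour, against 3.02% of the other eligible IDs. Among the 280 other abundant IDs, 26 (9.29%) had a neighbour of their own kind and 9 (3.21%) a member. The pairs are given as a description of positions in the ID order, with no test.

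TrC1138C and TrC1139W were the most alike of these pairs. Their means were 532 and 533 CPM in the deletion strain in light, 531 and 532 CPM in that strain in darkness, 660 and 677 CPM in the parent in light, and 536 and 576 CPM in the parent in darkness. Both were highest in all 3 libraries of the parent in light, and the ratio of TrC1138C to TrC1139W stayed between 0.914 and 1.07 in the 11 libraries. TrA1923C and TrA1924W also had their highest means in the parent in light, 536 and 485 CPM, and kept a ratio of 1.03 to 1.27. TrE0365W and TrE0366C also kept a nearly fixed ratio, 1.98 to 2.33, and had their lowest means, 1124 and 495 CPM, in the deletion strain in light. The pair TrA1169W and TrA1170W kept no such ratio, which ran from 2.73 to 4.88, lowest where TrA1169W was lowest. The rule itself limits how far the ratio of any 2 members can move between groups. Ratios of members that are not neighbours are not given here, so a nearly fixed ratio is not read as particular to the pairs. The other pairs were TrA0344C with TrA0345W, TrB0231W with TrB0232C, TrD0724C with TrD0725C and TrG0635W with TrG0636W. The settings for strand and for reads of overlapping neighbours are not stated in the labels, so reads shared within a pair cannot be told apart.

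Other scalings changed which IDs met the rule more than how many met it. With TMM scaling 159 IDs met the rule and 107 of them were among the 167, with upper-quartile scaling 166 and 135, and with DESeq2 size factors 158 and 101. Leaving out a library gave 151 to 173 IDs, of which 146 to 162 were among the 167. Under all 4 scalings 100 members were kept, in all 11 omissions 100, and in both 68. The 68 held 4 of the 6 members of highest level, TrC1333W, TrC0653W, TrE0237W and TrC1132W, and all 6 members of smallest group ratio. TrE0124C and TrA1169W were not among them.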

How the data were processed

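RNA sequencing of mycelium gave 1 table of counts per gene ID for 11 libraries. The counts were deposited by the authors as whole numbers without normalization, and HISAT2 2.2.1 is named in the submitters' processing notes. The design text of the series names a published QM6a transcript set. The counting program's settings are not stated in the labels. Columns were assigned to samples by the names in the sample descriptions. The 11 libraries held 8020351 to 18278047 counts.

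The members and lists were chosen with earlier results of these data known. CPM used library totals. The members were never tested as a list, because their group means had chosen them. For the calls, edgeR 4.0.16 (R 4.3.3) was run on all 11 libraries with filterByExpr, which left 9040 IDs and all 167 members, TMM scaling, a mean per group and robust quasi-likelihood estimation. Benjamini-Hochberg adjustment ran over the 9040 IDs of each comparison, and the threshold was 0.05. The p-values measure the spread between these libraries, which may be technical. The fit was tested on simulated counts with changes larger than any of the members' calls, so calls of their size were not covered. Alternatives were library totals, upper-quartile scaling, DESeq2 1.42.0, no filter, a replicate block, a fit of only the groups compared and omission of each library. The numbers of members kept under all settings, of steady IDs at lower levels and of neighbouring members were added after seeing the data.

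Members were named for the highest level (6), the smallest group ratio (6), the highest level in a series not yet named, the 2 widest and 2 narrowest library ratios, the 2 nearest each limit on either side, consecutive IDs, and in each comparison up to 2 called members of largest change in each direction. The 2 other abundant IDs of highest level were named for contrast. No ID has a name or sequence here.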

Additional observations from a re-analysis of the deposited data

Results flagged for a closer look

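The strain effect differed between light and darkness for 2 of the 167 members, by the interaction term of the edgeR fit at an adjusted p under 0.05. The rule that chose the members had used the same group means, so both are given as a description. TrC0449W had 336, 325 and 319 CPM in the light libraries of the deletion strain against 347, 365 and 354 CPM in the parent in light. In darkness the deletion strain had 362, 395 and 431 CPM of this ID and the parent 308 and 340 CPM. The deletion strain was thus below the parent in light and above it in darkness, without overlap, and the interaction was -0.46 (log2, -0.455169 unrounded, SE 0.12). Taken singly, neither strain difference passed the threshold, with log2 fold changes of -0.20 (SE 0.08) in light and 0.25 (SE 0.09) in darkness. TrC1025C had 456, 465 and 418 CPM in the light libraries of the deletion strain against 435, 442 and 421 CPM in the parent in light, where the groups overlapped. In darkness its groups did not overlap, and the interaction was -0.38 (log2, -0.381666 unrounded, SE 0.11). The interaction of TrC0449W missed the threshold in 12 of 16 other settings and omissions and that of TrC1025C in 14 of 16, among them the omission of any light library. Neither interaction changed sign.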

How the results depend on the processing

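The number of members was 291 and 74 at level limits of 200 and 500 CPM, and 70 and 273 at ratio limits of 1.2 and 1.5. Other scalings, group medians and omission of each library left it within 1.5 times of 167, and 165 to 167 members stayed within 2-fold over the libraries.

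Called members were 39 for the strains in light, 5 in darkness, 43 for light in the deletion strain, 21 for light in the parent and 2 for the interaction. Library totals gave 1 for the strains in darkness, 13 for light in the parent and 0 for the interaction, where 21 members had an unadjusted p under 0.05. Upper-quartile scaling gave 24, 2, 26, 4 and 1. DESeq2 gave 9 for the strains in darkness and 7 for the interaction. Without a filter edgeR gave 3 for the strains in darkness and 0 for the interaction, with 27 at an unadjusted p under 0.05. The fit of only the groups compared gave 67 for the strains in light, 0 in darkness, with 4 at an unadjusted p under 0.05, and 8 for light in the parent. Leaving out 1 library gave 5 to 66, 0 to 12, 24 to 45, 7 to 34 and 0 to 6. Omission of a dark parent library leaves 1, assumed to vary like the other groups. The causes were not tested.

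The replicate number as a block in edgeR gave 32 for the strains in light, 0 in darkness, 40 for light in the deletion strain, 15 for light in the parent and 0 for the interaction. For the zeros, 17 and 30 members had an unadjusted p under 0.05. Deviations of same-numbered libraries correlated at -0.43 to 0.30 over 15 pairs, and those of differently numbered libraries at -0.44 to 0.44 over 30. The deviations of a group's libraries depend on each other, so these values cannot decide whether the numbers pair the samples. No named log2 fold change reversed sign in any of these settings.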
